A study of Anopheles gambiae with 16 samples.

Results

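Carcasses of adult Anopheles gambiae females, a mosquito that transmits malaria, were measured after 2 rounds and after 1 round of RNA amplification, and the 16884 mosquito probe sets of the array were compared between both labellings. The 8 carcass arrays were chosen by their titles out of 16 arrays in the series, and the mosquito probe sets are those whose IDs begin with Ag., out of 22761 rows. A carcass here is the body that remains once hemolymph has been taken and the head cut off. Per the labels each array held a pool of 20 naive females of the G3 strain, 1 to 2 days after eclosion, with RNA from Trizol cleaned on a column. The 4 two-round arrays were labelled by the two-cycle protocol from 80 ng of total RNA and the 4 one-round arrays by the one-cycle protocol from 1000 ng, so rounds of amplification and amount of RNA cannot be told apart. Heads (40 females a pool) and circulating hemocytes, the blood cells of insects, were labelled by the two-cycle protocol from 80 ng on 4 arrays each, and are used only to set levels beside those of the carcass. The source name of head replicate 4 mentions carcasses, and the collection note of all carcass samples speaks of heads, while titles, descriptions and tissue entries were followed here.

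In one-cycle labelling, a primer of T bases that carries a T7 promoter starts cDNA synthesis at the poly-A tail, and T7 RNA polymerase copies the cDNA into biotin-labelled antisense RNA. In two-cycle labelling that antisense RNA is first made without biotin, is copied back into cDNA from random primers, and is transcribed again with biotin. Probe sets on such arrays are mostly taken from the 3' part of a transcript, and dedicated control probe sets for the 5' end, the middle and the 3' end show how far along a transcript the labelled product reaches. An Ag. ID holds a chromosome arm (UNKN where none is given), a number, and the mark CDS for coding sequence, the mark UTR for untranslated region, or neither. The files pair no ID with a gene, and no Ag. ID was found in the species' gene table, so probe sets are described by ID, mark and arm, and the carcass could not be checked against marker genes.

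Levels are the deposited intensities, and differences are log2(intensity + 16) after 2 rounds minus after 1 round, which understates the change of dim probe sets. Same-numbered arrays formed 4 pairs. Calls come from limma's paired fit over all 16884 and need a Benjamini-Hochberg adjusted p under 0.05 together with a change of 2-fold or more. The array also carries 4502 Pf. probe sets, read as those of the malaria parasite, whose 95th percentile served as the background of an array, and a bright probe set was above it on at least 4 of the 8 arrays. Median intensity was 22.3 to 26 on the two-round arrays. It was 19.1 to 19.3 on one-round replicates 1, 2 and 4, and 25.6 on replicate 3, which stood apart from the other one-round arrays in several measures. Its part in the results was measured by leaving out its pair.

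Most carcass probe sets were not called between the labellings, and on the deposited scale more were higher than lower after 2 rounds. Of 16884 probe sets, 1281 were called higher (7.59%) and 466 lower (2.76%), together 10.3%. With no fold minimum 4185 (24.8%) passed limma's adjusted p, 3084 of them higher and 1101 lower. The median log2 difference over all probe sets was 0.12, with a median SE of 0.17, and the 5th and 95th percentiles were -0.74 and 1.17. Of the called probe sets, 1279 of the 1281 higher ones were higher in 4 of 4 pairs and 464 of the 466 lower ones were lower in 4 of 4. Over all probe sets, 29.4% were higher and 11.4% lower in 4 of 4 pairs. The calls rest on these same pairs, so agreement between pairs is largely set by the choice. The 2 groups of arrays did not overlap at all for 1148 of the higher calls and 430 of the lower calls. Over all probe sets, non-overlap was found for 17.4% upward and 6.3% downward.

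**Figure D1:**
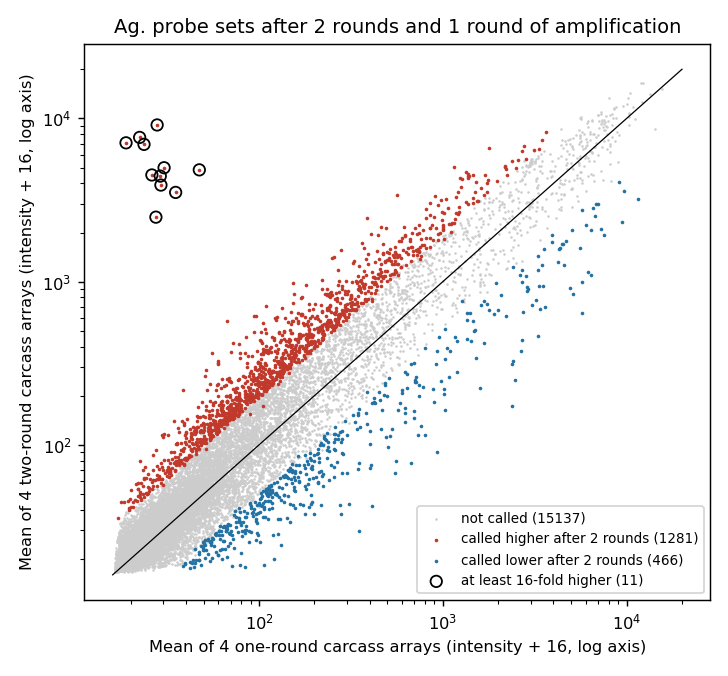
Each point is 1 of the 16884 mosquito probe sets, with the mean of the 4 one-round carcass arrays on the x axis and of the 4 two-round arrays on the y axis (intensity + 16, both axes logarithmic); the line marks equal levels. Called probe sets are coloured by direction (1281 higher, 466 lower), and the 11 ringed points, called at least 16-fold higher, lie apart from the other called ones.

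The balance of directions depended on how arrays were scaled. Higher calls were 73.3% of all calls on the deposited values, 61.4% with each array centred on its median (975 higher, 612 lower) and 39.6% with quantile normalization (534 higher, 815 lower). Scaling to the hybridization controls, chosen after seeing the data, gave 86.6% (1997 higher, 310 lower) and moved the median of all probe sets to 0.22. The pairs also differed. The median log2 difference was 0.15, 0.16 and 0.23 in pairs 1, 2 and 4 and -0.01 in pair 3. In pair 3, 3.88% of probe sets lay 2-fold or more above the one-round level and 7.98% as far below it, against 11.9% to 13.3% above and 2.71% to 3.74% below in the other pairs. Without pair 3 the calls were 1749 higher and 354 lower (83.2% higher). Calls by size, brightness group and kind of unmarked probe set are given below on the deposited scale only, and shares by class, ending and arm also with quantile normalization.

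Large differences were few. At 4-fold or more, 72 probe sets were called higher and 66 lower, and at 8-fold or more 12 and 8. The 72 were mostly unmarked probe sets (58, with 9 UTR and 5 CDS), whereas the 66 were mostly CDS (51, with 13 unmarked and 2 UTR). For comparison, 83.3% of all probe sets were CDS, 4.68% UTR and 12% unmarked. All 72 exceeded background on each head array and 71 on each hemocyte array, tissues that had been labelled by 2 rounds as well. Of the 66 lower ones, 51 exceeded it on each head array and 44 on each hemocyte array. Over all probe sets the shares were 50.4% and 47.8%. Called probe sets were nearly all bright, and the 2 tissues were labelled by 2 rounds, so these counts are not independent of the choice.

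A set of 11 unmarked probe sets with the arm entry UNKN stood far above the rest. They were the only probe sets called at least 16-fold higher, and all 11 were at least 64-fold higher. Their intensities were 1981 to 10180 on the two-round carcass arrays and 0.908 to 38.4 on the one-round arrays. Heads measured 951 to 8774 and hemocytes 1157 to 11819, so all 12 two-round arrays of the series were bright for all 11 and all 4 one-round arrays were dim. Log2 differences ran from 6.55 to 8.53 (limma adjusted p between 6.61e-07 and 1.84e-05), and the next largest rise of a called probe set was 3.01. On the one-round arrays 1 of the 11 was below background 4 times, 9 were above it on 1 to 3 arrays, and 1 was above it on all 4. Their ID numbers lay between 2201 and 2433, all above 2198, the last number that a CDS probe set carries among the UNKN IDs. The files do not say what sequence these probe sets hold, and 9 of the 11 end in _s_at, a suffix that the array maker uses for probe sets matching more than one transcript.

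The called probe set with the largest fitted rise was Ag.UNKN.2231.0_s_at, a rank among the 11 that rests on one-round values below background and on the pseudocount. With a pseudocount of 64 its log2 difference was 6.71, where the highest of the 11 was 6.92, and without pair 3 it was 8.52 beside a highest of 8.54. On the two-round carcass arrays it measured 5198, 7331, 8611 and 7139 in replicates 1 to 4, and on the one-round arrays 1.31, 1.36, 6.46 and 2.51. All one-round values were below background, so the groups were far apart, and the intensity was at least 725-fold higher after 2 rounds. The log2 difference was 8.53 ± 0.15 (SE, limma adjusted p = 6.61e-07). Heads (4897 ± 1439, SD, n = 4) and hemocytes (4665 ± 1391) were bright as well, beside 7070 ± 1408 in the two-round carcasses.

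Ag.UNKN.2433.0_s_at had the next largest fitted rise, with the same limit on its rank. It measured 6701, 7359, 7583 and 8881 on the two-round carcass arrays and 0.908, 4.55, 9.29 and 10.9 on the one-round arrays, of which 1 was above its background. The log2 difference was 8.43 ± 0.14 (SE, limma adjusted p = 6.61e-07), 10.30 with a pseudocount of 1 and 6.77 with 64. With the 3 one-round values below background raised to it, the intensity was 749.9-fold higher. Its level was 5242 ± 1177 in heads and 10614 ± 1029 in hemocytes (SD, n = 4).

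The largest called fall at the pseudocount of 16 was that of Ag.X.80.0_CDS_a_at, a coding probe set of the X chromosome by its ID. It measured 73.7, 132, 268 and 156 on the two-round carcass arrays, and 1138, 1423, 4834 and 2009 on the one-round arrays. Replicate 3 was the highest of both groups, every two-round array lay below every one-round array, and the log2 difference was -3.66 ± 0.17 (SE, limma adjusted p = 0.000117). In hemocytes it was above background on 1 of 4 arrays (11.1 ± 10.9, SD, n = 4) and in heads on 3 of 4 (143 ± 104). Between pooled tissues, fewer cells of a type and less RNA per cell cannot be told apart.

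Ag.2R.329.3_s_at, an unmarked probe set of arm 2R, fell by 3.58 ± 0.14 on the log2 scale (SE, limma adjusted p = 3.75e-05). It fell further than Ag.X.80.0_CDS_a_at with a pseudocount of 1 (-4.61 against -3.80) and without pair 3 (-3.62 against -3.51), so the order of the pair of probe sets is not settled. It measured 19.7, 7.73, 18.1 and 9.20 on the two-round carcass arrays, 2 of them above background, against 367, 290, 359 and 320 on the one-round arrays. The one-round arrays were thus narrowly grouped (334 ± 35.9, SD, n = 4) and all far above the two-round ones (13.7 ± 6.10). Heads (17.7 ± 5.71) and hemocytes (9.79 ± 3.78) were low too.

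**Figure D2:**
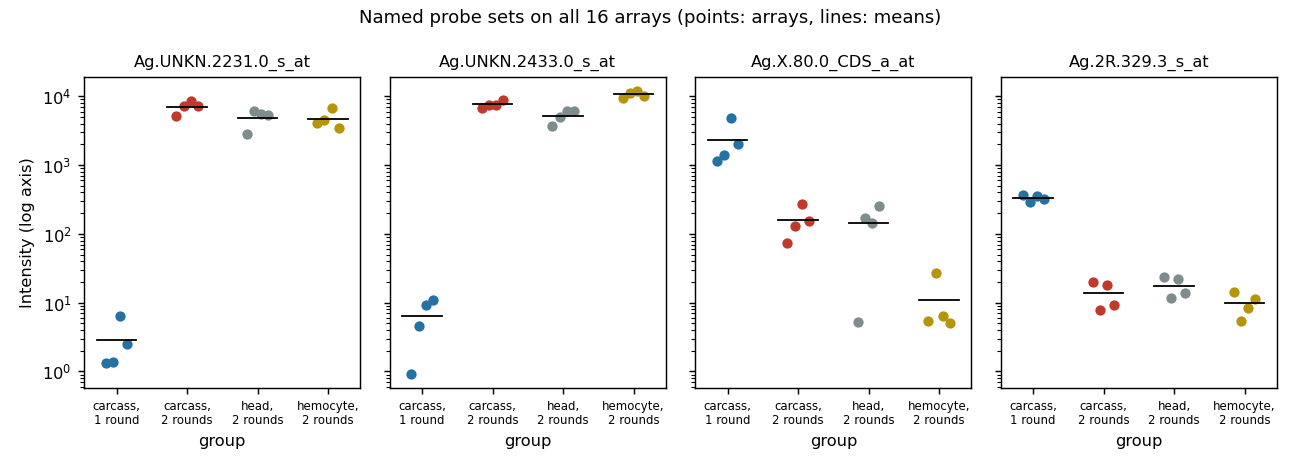
Intensity (log axis) of the 4 named probe sets on each of the 16 arrays, with the mean of each group as a line. The first and second panels are bright on every two-round array and at most 10.9 on the one-round carcass arrays, and the other panels are brightest on the one-round carcass arrays.

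The classes of probe sets differed in how often they were called higher. Of 790 UTR probe sets, 24.3% were called higher and 2.15% lower. Of 2034 unmarked ones, 20.3% were called higher and 2.95% lower, and of 14060 CDS ones 4.82% and 2.77%. Although their rate was low, CDS probe sets made up 677 (52.8%) of the higher calls, with 192 UTR and 412 unmarked, and 389 of the lower calls. The median UTR probe set differed by 0.53 on the log2 scale, the median unmarked one by 0.32 and the median CDS one by 0.09, beside 0.12 over all. UTR and unmarked medians were above 0 under each of 3 other scalings (UTR 0.42, 0.23 and 0.74, unmarked 0.21, 0.16 and 0.47 with median centring, quantile normalization and hybridization controls), whereas the CDS median turned to -0.02 with median centring and was 0.00 with quantile normalization. With quantile normalization 8.73% of UTR, 11.7% of unmarked and 1.61% of CDS probe sets were called higher, and 3.92%, 5.36% and 4.80% lower, so that CDS calls turned to mostly lower.

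Arrays rather than probe sets are the replicates of this comparison, so each class was also set against the other probe sets of the same array. The UTR median exceeded that of the other probe sets by 2.58 ± 0.15 (log2 level, SD, n = 4) after 2 rounds and by 2.05 ± 0.24 after 1 round. This excess was larger by 0.52 after 2 rounds, in 4 of 4 pairs, though one-round replicate 3 (2.39) slightly overlapped two-round replicate 1 (2.38). The unmarked median exceeded that of the others by 0.81 ± 0.04 and 0.60 ± 0.09, larger by 0.22 in 4 of 4 pairs. The CDS median lay below that of the others, at -1.32 ± 0.05 and -1.0 ± 0.12, lower by 0.33 after 2 rounds in 4 of 4 pairs. The exact two-sided permutation test within pairs gave p = 0.13 for each of the 3 classes (2 of 16 sign arrangements, the fewest that 4 pairs allow), and 0.15 after adjustment over 6 array measures.

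Brightness was tied to class, and to calls in part through the scale. Probe sets were put into 4 equal groups of 4221 by their mean log2 level over the 8 arrays. None of the dimmest group was called in either direction, 0.81% and 1.02% of the next were called higher and lower, 5.97% and 4.03% of the third, and 23.6% and 5.99% of the brightest. The dimmest group had median levels of 2.99 after 2 rounds and 2.38 after 1 round. With the pseudocount added, a 2-fold change is hardly within reach at such levels, so its lack of calls says little about amplification. The groups were also formed from the 8 arrays compared, so a strong rise could itself move a probe set up a group. UTR probe sets were the brightest class, with a median level of 133 after 1 round against 37.2 for unmarked and 17.4 for CDS ones. Within the brightest group, 32.5% of UTR, 43.3% of unmarked and 16.8% of CDS probe sets were called higher, and 2.26%, 4.59% and 7.04% lower. In the third group the shares called higher were 10.6%, 12.3% and 4.55%. The order of the classes thus differed from that over all probe sets, with unmarked ones ahead of UTR ones in both groups.

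**Figure D3:**
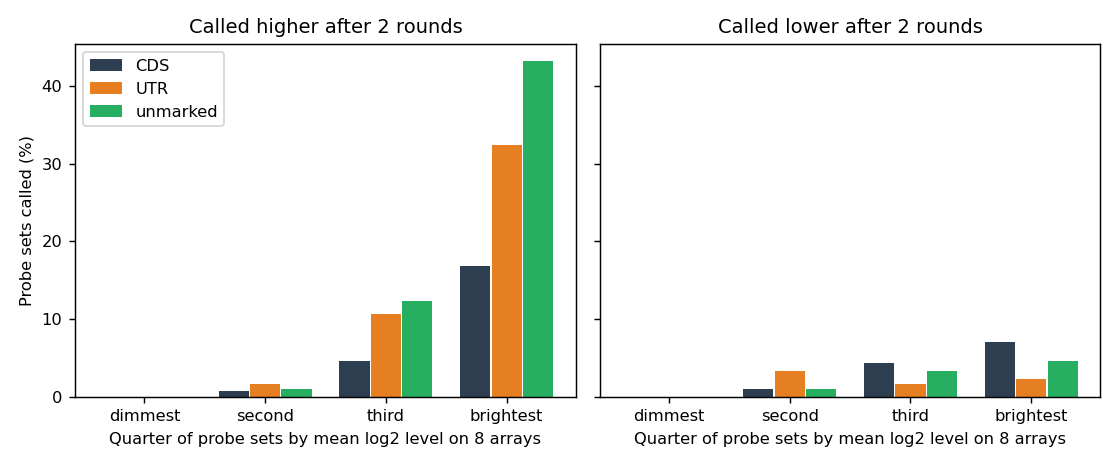
Percent of CDS, UTR and unmarked probe sets called higher (left) and lower (right) after 2 rounds, in 4 equal groups of all probe sets by mean log2 level on the 8 carcass arrays. In the brightest group 43.3% of unmarked, 32.5% of UTR and 16.8% of CDS probe sets were called higher, while lower calls stayed at or below 7.04% in each bar.

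Unmarked probe sets fell into 2 kinds by ID number, a division chosen after the IDs and values were seen and given as a description. The 1248 whose number lies above the last CDS number of their arm had 26.8% called higher and 1.36% lower, with a median log2 difference of 0.50. The 786 with numbers among those of the CDS probe sets had 9.80% higher and 5.47% lower, with a median of 0.07. Of the 1248, the share called higher was 34.6% on 2L, 24.8% on 2R, 23.0% on 3L, 27.1% on 3R, 19.5% on X and 30.7% among those with no arm. The levels of the 2 kinds after 1 round were alike, with medians of 35.3 and 40.9.

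Probe sets of one ID cluster, meaning the same arm and number, allowed UTR and CDS to be compared side by side. That a cluster stands for one gene is a reading of the IDs that no source used here records. A UTR and a CDS probe set were both present in 728 clusters. On each array the median over these clusters of UTR minus CDS (log2 level) was taken. It was 1.48, 1.46, 1.52 and 1.55 on two-round replicates 1 to 4, and 0.55, 0.72, 0.72 and 0.72 on one-round replicates 1 to 4. Every two-round array lay above every one-round array. The means were 1.5 ± 0.04 and 0.68 ± 0.09 (SD, n = 4), and the within-pair difference was 0.83 ± 0.08, positive in 4 of 4 pairs (exact permutation test within pairs, p = 0.13, the smallest possible, adjusted p = 0.15). Heads measured 1.61 ± 0.07 and hemocytes 1.42 ± 0.10, near the two-round carcasses.

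**Figure D4:**
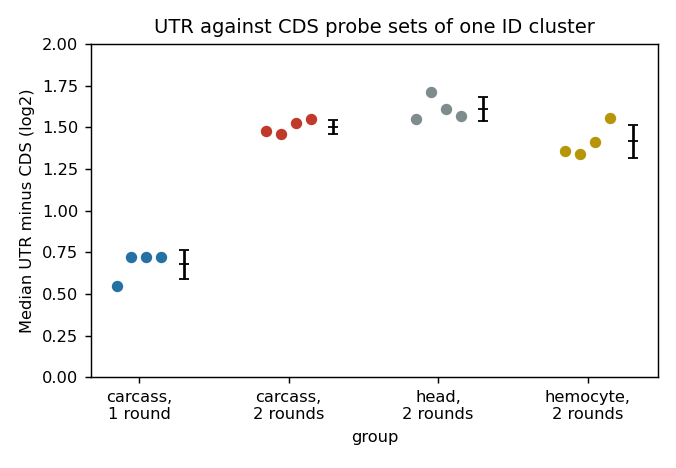
Median over 728 ID clusters of UTR minus CDS level (log2) on each array, with mean ± SD (n = 4) beside the points of each group. The one-round carcass arrays lie between 0.55 and 0.72, and the 12 two-round arrays between 1.34 and 1.71.

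Single clusters mostly moved the same way. UTR minus CDS was larger after 2 rounds in 591 of the 728 clusters (81.2%), and the middle 50% of cluster shifts ran from 0.21 to 1.49. It was larger in all 4 pairs in 471 clusters and smaller in all 4 in 54. The shift was 1 or more in 319 clusters and -1 or less in 7. In the 623 clusters whose UTR and CDS members were all bright, 529 (84.9%) had a larger difference, with a median shift of 0.98. Of 524 clusters with more than 1 probe set and at least 1 call, 76 had 2 or more calls, and 41 of these 76 held both a higher and a lower call. The 43 higher members of these 41 clusters were 28 UTR, 8 CDS and 7 unmarked probe sets, and the 44 lower members were 35 CDS, 8 unmarked and 1 UTR.

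Control transcripts with separate 5', middle and 3' probe sets gave a measure of their own, the 3' over 5' intensity ratio. Whether the UTR probe sets of the ID scheme lie 3' of the CDS ones is not recorded in the sources used here. The poly-A controls dap, lys, phe and thr are bacterial transcripts with a poly-A tail, made to be added to total RNA before labelling. How much was added, and whether both labellings had the same amount per RNA, is not given in the sources used here. The 3' over 5' intensity ratio of dap was 32.6, 27.9, 29.4 and 23.7 on the two-round carcass arrays and 3.03, 2.41, 4.53 and 2.10 on the one-round arrays. The groups did not overlap, with a 9.77-fold higher ratio after 2 rounds. For thr the ratio was 5.94-fold, for phe 7.13-fold and for lys 8.78-fold higher, each without overlap and in 4 of 4 pairs (exact permutation test within pairs, p = 0.13 each, adjusted p over the 10 controls 0.139). The one-round levels of lys and phe lay between 4.89 and 19.2, near or below background, so their ratios are uncertain. The one-round 5' levels of dap (11.8 to 23.0) and thr (8.87 to 23.6, above background on 3 of 4 arrays) were low too. On the two-round arrays the 5' level of lys was above background on 2 of 4. The mosquito control genes actin, a cytoskeleton and muscle protein, and Gapdh, an enzyme of glycolysis, had ratios of 25.4 ± 3.30 and 32.0 ± 6.23 after 2 rounds against 2.63 ± 0.32 and 1.62 ± 0.22 after 1 round (SD, n = 4). Their 5' levels were 6.35-fold and 19.1-fold lower after 2 rounds, and their middle levels 1.72-fold and 1.84-fold lower, each without overlap. The 3' level was 1.52-fold higher for actin and 1.03-fold for Gapdh, the latter with overlapping arrays.

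The 3' probe sets of the poly-A controls were also brighter. For dap the 3' level was 1029 to 2099 after 2 rounds and 35.8 to 104 after 1 round, 25.2-fold higher. The 3' level of thr was 15.3-fold higher. For phe and lys, above background on 3 and 1 of 4 one-round arrays, the 3' level was 30.7-fold and 12.6-fold higher with the values below background raised to it. At the 5' end the folds computed in this way were 2.58 for dap, 2.49 for thr, 4.93 for phe and 1.67 for lys, the last with overlapping arrays and 2 of 4 arrays above background in each group. The hybridization controls bioB, bioC, bioD and cre, labelled transcripts made to be added after amplification, differed little in comparison. Their 3' over 5' ratios were between 0.81-fold and 1.13-fold of the one-round ratios. Those of bioD and cre were lower in 4 of 4 pairs with overlapping arrays, and that of bioC was higher without overlap (1.09 and 0.97). The geometric mean of their levels was 703 ± 49.2 on the one-round arrays and 591 ± 28 on the two-round arrays (SD, n = 4), lower in 4 of 4 pairs.

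**Figure D5:**
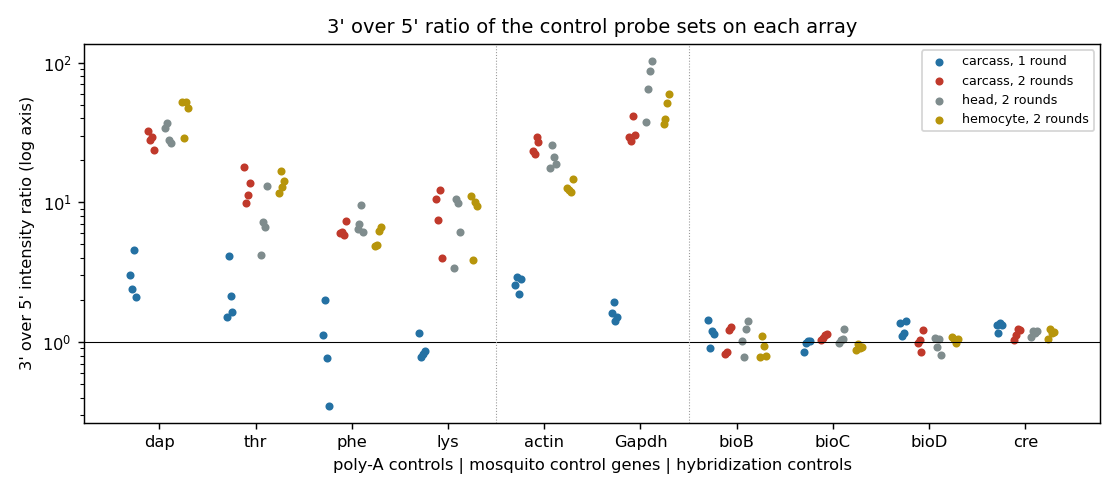
3' over 5' intensity ratio (log axis) of the poly-A controls, the mosquito control genes and the hybridization controls on all 16 arrays, coloured by group. One-round carcass arrays lie between 0.35 and 4.53 over all controls. The two-round carcass, head and hemocyte arrays lie above every one-round array for each poly-A control and for actin and Gapdh, whereas for each hybridization control the 12 two-round arrays span the one-round range in part.

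Suffix and chromosome arm were compared as well. Probe sets with the plain ending _at were called higher in 7.42% and lower in 1.59% of 12171 cases, those ending in _a_at, used for several transcripts of one gene, in 8.30% and 6.16% of 3327, and those ending in _s_at in 7.35% and 4.73% of 1374. With quantile normalization the shares higher and lower were 3.20% and 3.02%, 2.95% and 10.1%, and 3.35% and 7.93%. With all classes together, higher calls were about as frequent for each ending and lower calls fewest for plain ones under both scalings. For _a_at and _s_at, however, the excess turned from higher to lower calls. Single classes differed on the deposited scale. Of unmarked probe sets, 24.9% of plain, 8.43% of _a_at and 25.7% of _s_at ones were called higher. Of UTR probe sets, 2.41%, 2.34% and 0% were called lower. Among the autosome arms the share called higher ran from 8.02% (3L) to 8.64% (2L) and the share called lower from 2.13% (3L) to 3.27% (3R). With quantile normalization each of these 4 arms had more lower than higher calls, at 3.01% (3L) to 3.81% (3R) higher and 3.85% (3L) to 5.89% (2L) lower. The X chromosome had 4.99% higher and 3.92% lower of 1403 (2.35% and 6.56% with quantile normalization), and its median log2 difference of 0.06 turned to -0.03 with quantile normalization. Probe sets with no arm had 3.97% higher and 1.19% lower of 1938 (2.06% and 1.91% with quantile normalization), of which 41.0% were bright, against 66.5% of all probe sets. These shares were not tested over arrays.

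Detection was mostly shared. Above background on all 8 carcass arrays were 7583 probe sets, and 2480 were above it on none. All 4 two-round arrays detected 8230 and all 4 one-round arrays 9036. Background itself ranged from 12.8 to 15.3 on the two-round arrays and from 8.83 to 10.02 on the one-round arrays, and per array 10235 to 10567 and 10937 to 11888 probe sets lay above it. Under one background for all 8 arrays, the highest of them, which was chosen after seeing the data, the counts were 9930 to 10523 and 9366 to 10423. These ranges overlapped. The direction turned in 3 of 4 pairs but not in pair 3 (9930 after 2 rounds against 10423).

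Detection after one labelling only was rare. After 2 rounds only (4 of 4 arrays against 0 of 4) there were 24 probe sets (0.142%), 20 of them CDS and 4 unmarked. After 1 round only there were 145 (0.859%), with 131 CDS, 11 unmarked and 3 UTR. Both lists were dim, with median levels of 25.9 and 21.2 in the group that detected them, and 1 probe set in each exceeded 100. Of the 24, 15 (62.5%) were above background on all head arrays and 9 (37.5%) on all hemocyte arrays. For the 145 these numbers were 14 (9.66%) and 19 (13.1%), against 50.4% and 47.8% of all probe sets. Both lists were chosen in part by two-round carcass arrays. Heads and hemocytes were labelled by 2 rounds too, so these shares are not independent of the choice. Under the one common background the counts were 79 and 75, so the larger number after 1 round was not kept.

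Most called probe sets were detected under both labellings. Of the 1281 called higher, 1165 were above background on all 4 one-round arrays and 16 on none. Of the 466 called lower, 315 were above background in each two-round array and 43 in none. Of all 16884 probe sets, 9036 were above background on all 4 one-round arrays and 8230 on all 4 two-round arrays. Dim probe sets can hardly reach a 2-fold change with the pseudocount added, so detection of called ones is in part set by the rule. Higher calls were detected on all head arrays in 94.4% and on all hemocyte arrays in 91.4% of cases, and lower calls in 63.9% and 62.4%, against 50.4% and 47.8% of all mosquito probe sets. Of the calls, 1280 higher and 465 lower ones were bright probe sets, whereas the share over all includes dim ones. Heads and hemocytes were labelled by 2 rounds too. These shares are therefore not independent of the choice and cannot be read as an excess.

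The brightest transcripts were partly the same. Of the 100 probe sets with the highest mean level after each labelling, 65 were in both lists, which is 65% of each. The two-round list held 56 CDS, 17 UTR and 27 unmarked probe sets, and 7 of the 100 were called higher, near the 7.59% of all probe sets and below the 23.6% of the brightest group. The one-round list held 73, 9 and 18, and 13 of the 100 were called lower, beside 2.76% of all probe sets and 5.99% of the brightest group. In the two-round list 0 were called lower, and in the one-round list 0 were called higher. Each list was picked by the level after its own labelling, which favours calls in that direction. These counts therefore cannot be read as an excess. The 100 brightest made up 22.8% to 23.6% of the summed mosquito intensity on the two-round arrays and 22.2% to 26.3% on the one-round arrays.

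The spread of levels within an array was larger after 2 rounds by one measure in 4 of 4 pairs. The SD of log2 levels over all mosquito probe sets was 1.86, 1.88, 1.85 and 1.87 on two-round replicates 1 to 4 and 1.70, 1.72, 1.85 and 1.70 on one-round replicates 1 to 4. The lowest two-round array and one-round replicate 3 were nearly equal (1.849 against 1.848), and the other one-round arrays were clearly lower. The mean difference was 0.12, with 4 of 4 pairs in this direction (exact permutation test within pairs, p = 0.13, the smallest possible, adjusted p = 0.15). With pseudocounts of 1 and 64 the exact test gave p = 0.25 (differences 0.08 and 0.11). The interquartile range was larger after 2 rounds in 3 of 4 pairs and smaller in pair 3 (2.14 against 2.21). Levels above 1000 were reached by 755 to 826 probe sets on the two-round arrays, by 572 to 594 on one-round replicates 1, 2 and 4, and by 764 on one-round replicate 3.

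No difference in repeatability was detectable with 4 pairs. The median absolute distance of a probe set from the mean of the other 3 replicates was 0.20 to 0.24 (log2) on the two-round arrays. It was 0.20 to 0.22 on one-round replicates 1, 2 and 4, and 0.33 on replicate 3. The mean difference of -0.01 was not larger than the spread between pairs (SD 0.05; exact permutation test within pairs, p = 1). Without pair 3 it was 0.03, larger after 2 rounds. Per probe set, the median SD was 0.26 after 2 rounds and 0.28 after 1 round, and 0.23 and 0.20 without replicate 3. As a description, two-round arrays correlated with each other at 0.953 to 0.973 and one-round arrays at 0.951 to 0.974 (6 pairs of arrays each), same-numbered arrays across labellings at 0.921 to 0.933 (4 pairs), and other numbers at 0.899 to 0.925 (12 pairs), each over the 16884 probe sets, which share array and scaling.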

How the data were processed

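The authors processed the arrays with GCOS 1.4, per the submitters' processing notes, and deposited 1 linear intensity per probe set and array. How probe sets were summarised and scaled is not given in the sources used here. The values were used without further normalization. The log2 of intensity plus 16 of the 8 carcass arrays was fitted by lmFit and eBayes of limma 3.58.1 (R 4.3.3), with replicate number as a block (3 residual degrees of freedom). The pairing rests on the replicate numbers in the titles. Deviations from the group means correlated at 0.40, 0.21, 0.48 and 0.25 between same-numbered arrays and at -0.34 to 0.01 between others. Deviations from a group mean cancel out over the group, so positive values for same numbers lower the others in part by construction. The labels do not say that same-numbered arrays share RNA. They call all arrays biological replicates. No slide or scan date was given. The number of arrays limits the precision.

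Values per array were tested by exact two-sided permutation within pairs. Named were, per direction, the 2 called probe sets with the largest change whose arrays do not overlap. A bound on a fold uses the higher of background and measured value on each dim array. On simulated data, 69% of 3-fold and 98% of 8-fold changes (100 each of 16884) were recovered, with 1 false call. The simulated noise was independent between probe sets and held no shift of whole arrays between labellings. The 1 false call therefore says nothing of errors from scaling. Recovery was not split by brightness. The pseudocount limits the change that a dim probe set can show, so these shares cannot be taken to hold for dim probe sets. Members, lists and tests were chosen with earlier results of these data known. The gene table held 15165 genes (0 IDs matched). Alternatives were other pseudocounts, scalings, backgrounds, filters, fits without the block, and leaving out each pair.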

Additional observations from a re-analysis of the deposited data

Results flagged for a closer look

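Among 64 groups of 4 arrays checked for an array far from the other 3, 5 held such an array. Chance gives about 1 in 20 such groups. The 64 groups are different measures of the same arrays and not independent, so the count cannot be set against chance. One-round carcass replicate 3 was the far array in 4 of the 5. Its median intensity was 25.6 against 19.1 to 19.3 in the other one-round arrays. The SD of its log2 levels was 1.85 against 1.70 to 1.72. It had 764 probe sets over 1000 against 572 to 594, and 10423 above the one background for all carcass arrays against 9366 to 9398. The remaining case was one-round replicate 1, whose median UTR minus CDS difference within ID clusters was 0.55, the lowest of its group, against 0.72 in the other 3 arrays. What set these arrays apart was not tested.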

How the results depend on the processing

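The 4 named probe sets kept direction and call under all 12 alternatives (6.71 to 10.98, 6.77 to 10.30, -4.02 to -3.29 and -4.61 to -2.36 on the log2 scale), and the 11 called probe sets that rose most were at least 16-fold higher in each. Counts of higher and lower calls were 629 and 194 with a pseudocount of 64, 534 and 815 with quantile normalization, and 1997 and 310 with hybridization-control scaling. They were 1118 to 1749 and 354 to 541 when each pair was left out. With no replicate block they were 1207 and 441 over the 8 carcass arrays and 1230 and 440 in a fit of 4 groups over 16 arrays. Shares by class changed little in these 2 fits. Called higher were 22.8% and 23.3% of UTR, 19.4% and 19.9% of unmarked, and 4.50% and 4.56% of CDS probe sets. Probe sets detected after 1 round only numbered 219 with the 99th percentile as background (23 after 2 rounds only) and 75 with one common background (79). Leaving out a pair gave 237 to 297 and 53 to 90, since fewer arrays must then satisfy the rule. The distance from other replicates, -0.01 as reported, turned to 0.0055 with quantile normalization, to 0.0073 with median centring and ran from -0.036 to 0.029 when each pair was left out, highest without pair 3. The cause was not tested. Class differences kept their direction (UTR 0.21 to 0.59, unmarked 0.13 to 0.31, CDS -0.41 to -0.21), as did UTR minus CDS within clusters (0.56 to 1.13). Quantile normalization sets the SD difference to 0 by construction. With 4 pairs no single value could reach a p below 0.13 (0.25 with a pair left out). Intensities near background limit what can be said of dim probe sets.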
